A study of Mus musculus with 3 samples.

Results

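The genes described here are 9 members of the Sox family, all transcription factors with a DNA-binding HMG box: Sox1, Sox2 and Sox3 of group SoxB1, Sox21 of group SoxB2, Sox4 and Sox11 of group SoxC, and Sox5, Sox6 and Sox13 of group SoxD. They were taken by symbol from the deposited gene lists, which held each symbol once among 30559 genes. Nuclear RNA was measured in single nuclei of subventricular zone-derived neurosphere cultures, which are floating colonies grown from neural stem cells of the newborn mouse brain (P0 to P3) and then plated to differentiate into neurons, oligodendrocytes and astrocytes. There were 3 libraries with 1 library per condition: control, CBPf/f (here CBP-ablated) and p300f/f (here p300-ablated), where f/f marks 2 floxed alleles of the gene for the acetyltransferase CBP or its paralog p300. All 3 samples carry tamoxifen as treatment in the labels, whereas the methods describe a lentivirus that expresses Cre recombinase with mCherry in the floxed cultures and a lentivirus with RFP in control. Each library was a pool of about 15 cultures at 15 days in vitro on a C57BL/6 background, nuclei were sorted for the red reporters, and the mouse line behind the control cultures is not stated.

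SoxB1 factors keep neural progenitors in a proliferative state, and Sox2 is the best known marker of neural stem cells. Sox21 counteracts SoxB1 activity, SoxC factors switch on neuronal genes as progenitors commit to the neuronal fate, and SoxD factors, which lack an activation domain of their own, hold oligodendrocyte precursors immature and steer the timing of differentiation. CBP and p300 are coactivators that acetylate histones at promoters and enhancers after recruitment by sequence-specific factors such as CREB.

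The counts summed to 16312170 UMIs (unique molecular identifiers, 1 per captured RNA molecule) over 4884 control nuclei, 12748336 over 3017 CBP-ablated nuclei and 18876682 over 4648 p300-ablated nuclei, with medians of 3219, 4016 and 3902.5 UMIs per nucleus. Levels are given as CPM, the UMIs of a gene per 1000000 UMIs of the same library or class of nuclei, with exact Poisson 95% intervals, and ratios as log2 of 2 CPM values with exact conditional binomial 95% intervals in parentheses. With 1 library per condition no test between conditions was possible, the intervals cover counting error only, and fewer cells of a type cannot be told apart from less RNA per cell in a whole-library value. Of 12 clusters of nuclei, 10 were named after the marker list they met best, with between 5 and 9 of its markers. The names include neural and oligodendrocyte precursors (NPC/OPC-like) and radial glial or pluripotent stem cells (RGC/PSC-like). Another class met the markers of cluster 5 of the study, whose cells it named immature neurons (cluster-5-like). The NPC/OPC-like and proliferating-like clusters also met 4 and 3 of the 5 cluster-5 markers. The astrocyte-like cluster held 1280 control nuclei and 0 of either ablated library. No Sox gene was a marker of a class, but Sox1, Sox5 and Sox6 were among the 1576 genes used for clustering, so their differences between classes are a description. Between 1 and 7 cell barcodes were shared by any pair of libraries. The targeted genes do not check the labels, since counts per gene do not separate a deleted exon from the rest of the gene. Crebbp, which encodes CBP, measured 335, 369.5 and 365 CPM in control and after CBP and p300 ablation. Ep300, which encodes p300, measured 114, 136 and 115 CPM. The study describes recombined Ep300 as leaving no mature mRNA or protein. Here the Ep300 count, which also takes in introns, was not lower after p300 ablation, and the reason was not tested. The study reports that removal of CBP and p300 was checked in the differentiating cultures and shows a staining for CBP.

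The 9 genes spanned a wide range of levels, from Sox6 with 2293 in control, 2436 after CBP ablation and 2769.8 after p300 ablation (all in CPM) down to Sox3 with 0.797 in control, 0.784 after CBP ablation and 0.954 after p300 ablation. Between them stood Sox5, Sox2, Sox4, Sox11, Sox13, Sox21 and Sox1 in the control library, and both ablated libraries held the same order. Per kb of gene span, the control levels ran from 53.4 CPM per kb for Sox2, 16.9 for Sox4, 4.04 for Sox6 and 3.43 for Sox11 to 0.345 for Sox13. Per kb of annotated exon, Sox6 led with 155 CPM per kb, before Sox5 with 56.9 and Sox2 with 53.4. The order between genes therefore depended on the length used, since UMIs were counted over exons and introns and the 3 SoxD genes hold introns while the other 6 genes are single-exon genes.

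**Figure D1:**
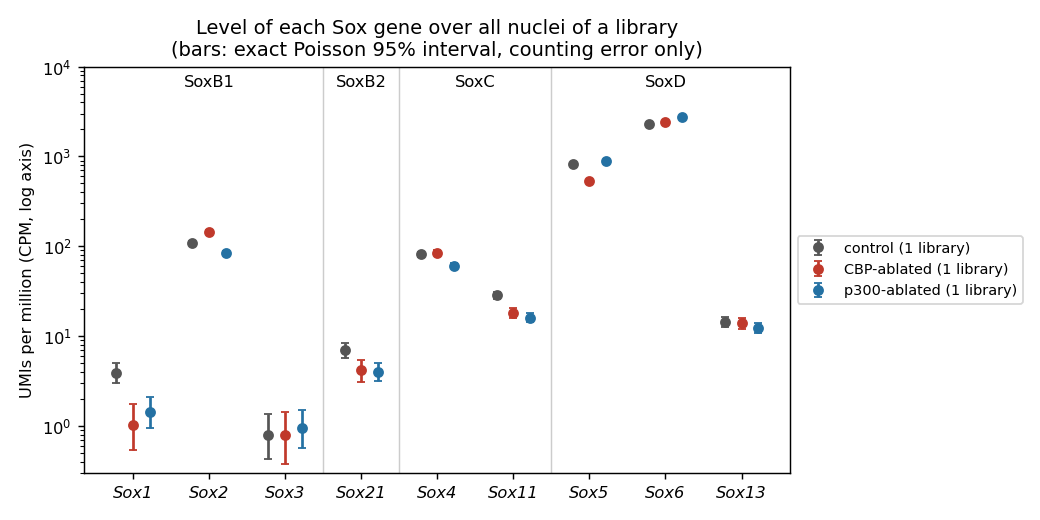
Level of each Sox gene in each library over all its nuclei, in CPM on a log axis. Points are single libraries (grey control, red CBP-ablated, blue p300-ablated) and bars are exact Poisson 95% intervals. Sox6 is the highest and Sox3 the lowest gene in every library, and the red point of Sox5 lies below the other 2.

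A gene was counted when the 2 libraries compared held at least 100 UMIs of it together, which 7 of the 9 genes did in each comparison with control. Sox1, with 64, 13 and 27 UMIs in control and after CBP and p300 ablation, and Sox3, with 13, 10 and 18, did not reach that minimum. None of the 7 genes differed 2-fold or more from control in either ablated library. Of all 11883 genes counted for the CBP-ablated library, 2.89% were at least 2-fold higher and 3.99% at least 2-fold lower, and of 12247 for the p300-ablated library 0.694% and 2.12%. At 1.5-fold, Sox21, Sox11 and Sox5 were lower in the CBP-ablated library, where 9.97% of all genes were that much lower and 7.9% higher. Sox21 and Sox11 were lower by that much in the p300-ablated library, where 7.77% of all genes were lower and 4.37% higher. The median log2 ratio of the 7 genes was −0.065 in the CBP-ablated library, beside 0.058 for all genes counted, and −0.38 in the p300-ablated library, beside −0.035. Both comparisons share the control library.

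Sox2 (chr3:34650405-34652461, plus strand, GRCm38, GENCODE M21) measured 109.9 in control, 146 after CBP ablation and 84.7 after p300 ablation (CPM), from 1793, 1859 and 1598 UMIs. The CBP-ablated library was the highest and the p300-ablated library the lowest, with log2 ratios to control of 0.41 (0.31 to 0.50) and −0.38 (−0.47 to −0.28). Compared directly, the CBP-ablated level was above the p300-ablated level by a log2 ratio of 0.78 (0.69 to 0.88). Across named classes Sox2 was highest in oligodendrocyte-like nuclei, at 206 in control, 262 after CBP ablation and 219.9 after p300 ablation, followed by committed oligodendrocyte precursor-like nuclei at 193 in control, 173 after CBP ablation and 155 after p300 ablation. The ranges of these 2 classes over the libraries did not overlap. Neuron-like nuclei held 156, 159 and 94.6 CPM in the same order of libraries. Of the classes named for progenitors, glial progenitor-like nuclei held 101, 88.2 and 98.6 CPM. RGC/PSC-like nuclei held 81.0, 62.9 and 56.9 CPM and NPC/OPC-like nuclei 77.4, 69.0 and 64.2 CPM. Microglia-like nuclei, which should lack Sox2, held 42.1, 67.5 and 21.3 CPM, from 12, 7 and 3 UMIs. In the CBP-ablated library RGC/PSC-like nuclei did not exceed that level, and NPC/OPC-like nuclei were close to it.

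The higher Sox2 level of the CBP-ablated library moved with its makeup. Oligodendrocyte-like nuclei gave 5.17% of all control UMIs but 23.1% of those of the CBP-ablated library, and 9.70% and 41.6% of the Sox2 UMIs. When both libraries were given the same class weights, the log2 ratio of Sox2 was −0.025 (−0.13 to 0.083), on the other side of 0 and with an interval that spans it. Within classes, the CBP-ablated level was below control in 5 of the 8 named classes with at least 20 UMIs, and in 1 class, oligodendrocyte-like, the interval lay above 0 at 0.35 (0.11 to 0.59). In the p300-ablated library the ratio with the same class weights stayed at −0.27 (−0.38 to −0.17), and the level was lower than control in 7 of 8 classes, with the interval below 0 in 5. The largest of these were neuron-like nuclei at −0.72 (−1.42 to −0.038) and RGC/PSC-like nuclei at −0.51 (−0.82 to −0.19).

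Because CBP and p300 act at promoters, the 250 bases upstream of the RefSeq start (GRCm38.p6) are shown for the genes with the most UMIs, with 2 motifs in capitals: the half-site of the cAMP response element, bound by CREB (TGACG, or CGTCA on the other strand), and the CCAAT box, bound by NF-Y (CCAAT or ATTGG). Of 32851 upstream windows of that length, 17.8% held the half-site, 1.55% the full element TGACGTCA, which contains the half-site, and 33.8% a CCAAT box. RefSeq windows were matched for 8 of the 9 genes, and none of their 13 windows held the full element. The Sox2 window (chr3:34649745-34649994, plus strand) held 1 CCAAT box, 46 bases from the start, and 72.0% G or C, beside a median of 52.4% over all windows.
Sox2: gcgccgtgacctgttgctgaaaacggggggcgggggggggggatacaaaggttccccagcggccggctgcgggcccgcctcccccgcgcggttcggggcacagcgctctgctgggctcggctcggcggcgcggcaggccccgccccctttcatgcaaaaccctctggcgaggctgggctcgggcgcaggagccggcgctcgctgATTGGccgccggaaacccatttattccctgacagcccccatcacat

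Sox1 (chr8:12395295-12400126, plus strand), which keeps progenitors undifferentiated, measured 3.92 in control, 1.02 after CBP ablation and 1.43 after p300 ablation (CPM). Both ablated libraries lay below control, with log2 ratios of −1.94 (−2.93 to −1.07) for CBP and −1.46 (−2.16 to −0.79) for p300 ablation. Of the 64 control UMIs, 57.8% came from astrocyte-like nuclei, where Sox1 stood at 9.43 CPM, a class with no nuclei in the ablated libraries. Weighted to the same classes, the log2 ratios were −1.14 (−2.12 to −0.15) and −0.53 (−1.31 to 0.25), the latter with an interval that spans 0, and outside the astrocyte-like cluster they were −1.10 and −0.61. Glial progenitor-like nuclei held 5.14, 5.79 and 4.53 CPM in control and after CBP and p300 ablation. RGC/PSC-like nuclei held 3.75 CPM in control and 2.42 after p300 ablation, and none of the CBP-ablated RGC/PSC-like nuclei had a Sox1 UMI, where 3 UMIs would stand for 1.81 CPM. The annotated transcript Sox1ot on the same strand covers Sox1, and Sox2ot covers Sox2. Neither is among the counted genes, so reads from them over the Sox1 or Sox2 body cannot be told apart from reads of the 2 genes.

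Sox3 (chrX:60891366-60893430, minus strand), the third SoxB1 factor, was close to the limit of detection, with 13, 10 and 18 UMIs in control and after CBP and p300 ablation. Its log2 ratios were −0.023 (−1.37 to 1.28) and 0.26 (−0.85 to 1.41), and at this depth a difference could not be detected. Sox21 (chr14:118233232-118237030, minus strand), the SoxB2 repressor, measured 6.93 in control, 4.16 after CBP ablation and 4.03 after p300 ablation (CPM), from 113, 53 and 76 UMIs. Control was the highest library and the 2 ablated libraries lay close together, with log2 ratios to control of −0.74 (−1.24 to −0.25) and −0.78 (−1.22 to −0.35) and of 0.046 (−0.49 to 0.57) to each other. Cluster-5-like nuclei held 10.4, 12.7 and 8.17 CPM and glial progenitor-like nuclei 11.01, 9.40 and 5.03 CPM, ranges that overlap, and the astrocyte-like nuclei of control held 8.92 CPM. Oligodendrocyte-like nuclei had 2.37, 0 and 1.69 CPM. With the same class weights the log2 ratio was −0.47 (−0.99 to 0.046) for CBP ablation, where the interval spans 0, and −0.66 (−1.12 to −0.20) for p300 ablation. Of the 4 classes with at least 20 UMIs in each comparison, none gave an interval off 0.

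The 2 SoxC genes among the 9 members, Sox4 and Sox11, both hold a CCAAT box upstream and differ in how many they hold. The box is not particular to them, since the windows of Sox1 and Sox2, some of those of Sox6 and 33.8% of all windows also held it. The Sox4 window (chr13:28953700-28953949, minus strand) held 4 CCAAT boxes, at 171, 104, 47 and 8 bases from the start, and the Sox11 window (chr12:27342719-27342968, minus strand) held 1 at 60 bases. Neither held a half-site of the cAMP response element.
Sox4: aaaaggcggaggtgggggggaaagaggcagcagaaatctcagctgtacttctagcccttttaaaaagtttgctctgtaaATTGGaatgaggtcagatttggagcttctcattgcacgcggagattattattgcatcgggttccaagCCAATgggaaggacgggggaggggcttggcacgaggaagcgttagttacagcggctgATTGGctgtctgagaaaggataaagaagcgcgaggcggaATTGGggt
Sox11: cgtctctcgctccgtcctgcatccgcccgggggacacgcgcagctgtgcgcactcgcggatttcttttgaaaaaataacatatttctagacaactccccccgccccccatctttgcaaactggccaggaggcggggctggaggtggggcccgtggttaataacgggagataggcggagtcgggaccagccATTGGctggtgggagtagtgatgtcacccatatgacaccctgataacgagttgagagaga

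Sox4 (chr13:28948919-28953713, minus strand), which acts in neuronal commitment and in early oligodendrocyte precursors, measured 81.2 in control, 85.2 after CBP ablation and 60.9 after p300 ablation (CPM), from 1325, 1086 and 1150 UMIs. Control and the CBP-ablated library were close, with a log2 ratio of 0.069 (−0.048 to 0.19), and the p300-ablated library was lower, at −0.42 (−0.53 to −0.30). With the same class weights the p300 ratio was −0.56 (−0.68 to −0.44), and outside the astrocyte-like cluster it was −0.63. Pooled over the libraries, Sox4 was highest among named classes in neuron-like nuclei (159, 165 and 177 CPM), then in cluster-5-like (178, 128 and 102 CPM) and committed oligodendrocyte precursor-like nuclei (123, 142 and 105 CPM), whose ranges over the libraries overlap. It was lowest in RGC/PSC-like nuclei at 37.0, 32.0 and 23.0 CPM. Microglia-like nuclei held 49.1, 67.5 and 63.9 CPM, from 14, 7 and 9 UMIs. The RGC/PSC-like, glial progenitor-like and oligodendrocyte-like nuclei did not exceed that level in any library. After p300 ablation Sox4 was lower in 7 of 9 named classes, with intervals below 0 in cluster-5-like nuclei at −0.80 (−1.08 to −0.52), RGC/PSC-like nuclei at −0.69 (−1.17 to −0.19) and NPC/OPC-like nuclei at −0.65 (−0.85 to −0.45), of which the RGC/PSC-like level is within that of microglia-like nuclei. The NPC/OPC-like level after p300 ablation, 67.8 CPM, was close to the 63.9 CPM of microglia-like nuclei in that library. Neuron-like nuclei, where Sox4 was highest, gave 0.16 (−0.42 to 0.73). After CBP ablation, cluster-5-like nuclei alone gave an interval off 0, at −0.47 (−0.82 to −0.14). At a finer resolution most control and most CBP-ablated nuclei of that class lie in different groups, led by Kcnj6 and by Gpr149. The second group belongs to a larger cluster that was named NPC/OPC-like. Sox4 gave 0.11 (−0.80 to 0.91) in the first and −0.90 (−1.34 to −0.46) in the second. After p300 ablation the 2 groups gave −0.64 (−0.96 to −0.31) and −0.70 (−1.60 to 0.10).

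Sox11 (chr12:27334264-27342574, minus strand), the SoxC factor most tied to immature neurons, measured 28.5 in control, 18.0 after CBP ablation and 16.1 after p300 ablation (CPM), from 465, 229 and 304 UMIs. Control was again the highest library, and the ablated libraries lay close to each other, with log2 ratios to control of −0.67 (−0.90 to −0.43) and −0.82 (−1.04 to −0.61) and of 0.16 (−0.096 to 0.41) between them. Neuron-like nuclei held 136 in control, 133 after CBP ablation and 94.6 after p300 ablation (CPM), and no other named class overlapped that range. The next class, astrocyte-like nuclei of control, stood at 38.0 CPM and gave 32.0% of the control UMIs of Sox11. Outside that cluster the ratios were −0.51 and −0.66, and with the same class weights −0.42 (−0.68 to −0.16) and −0.67 (−0.90 to −0.44). The level was below control in 8 of 8 named classes with at least 20 UMIs in each ablated library. The interval lay below 0 in 4 classes after p300 ablation, at −0.82 (−1.44 to −0.21) in cluster-5-like, −0.51 (−0.93 to −0.093) in NPC/OPC-like, −1.18 (−1.996 to −0.38) in RGC/PSC-like and −1.10 (−2.08 to −0.13) in proliferating-like nuclei, and in 1 after CBP ablation, oligodendrocyte-like nuclei at −1.54 (−2.88 to −0.17). Microglia-like nuclei, which should lack Sox11, held 14.0, 9.65 and 7.10 CPM from 4, 1 and 1 UMIs, where 3 UMIs would stand for 10.5, 28.9 and 21.3 CPM. RGC/PSC-like nuclei held 17.2, 10.3 and 7.57 CPM and oligodendrocyte-like nuclei 11.8, 4.07 and 8.43 CPM. With so few microglia-like UMIs, whether these 2 classes stood above that level cannot be told. Within the finer groups of the cluster-5-like nuclei, Sox11 after p300 ablation gave −0.27 (−1.04 to 0.53) in the Kcnj6 and −0.92 (−2.90 to 0.61) in the Gpr149 group, both intervals spanning 0. The 2 ablated libraries are set against the same control, so the shared direction is not evidence from 2 independent comparisons.

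**Figure D2:**
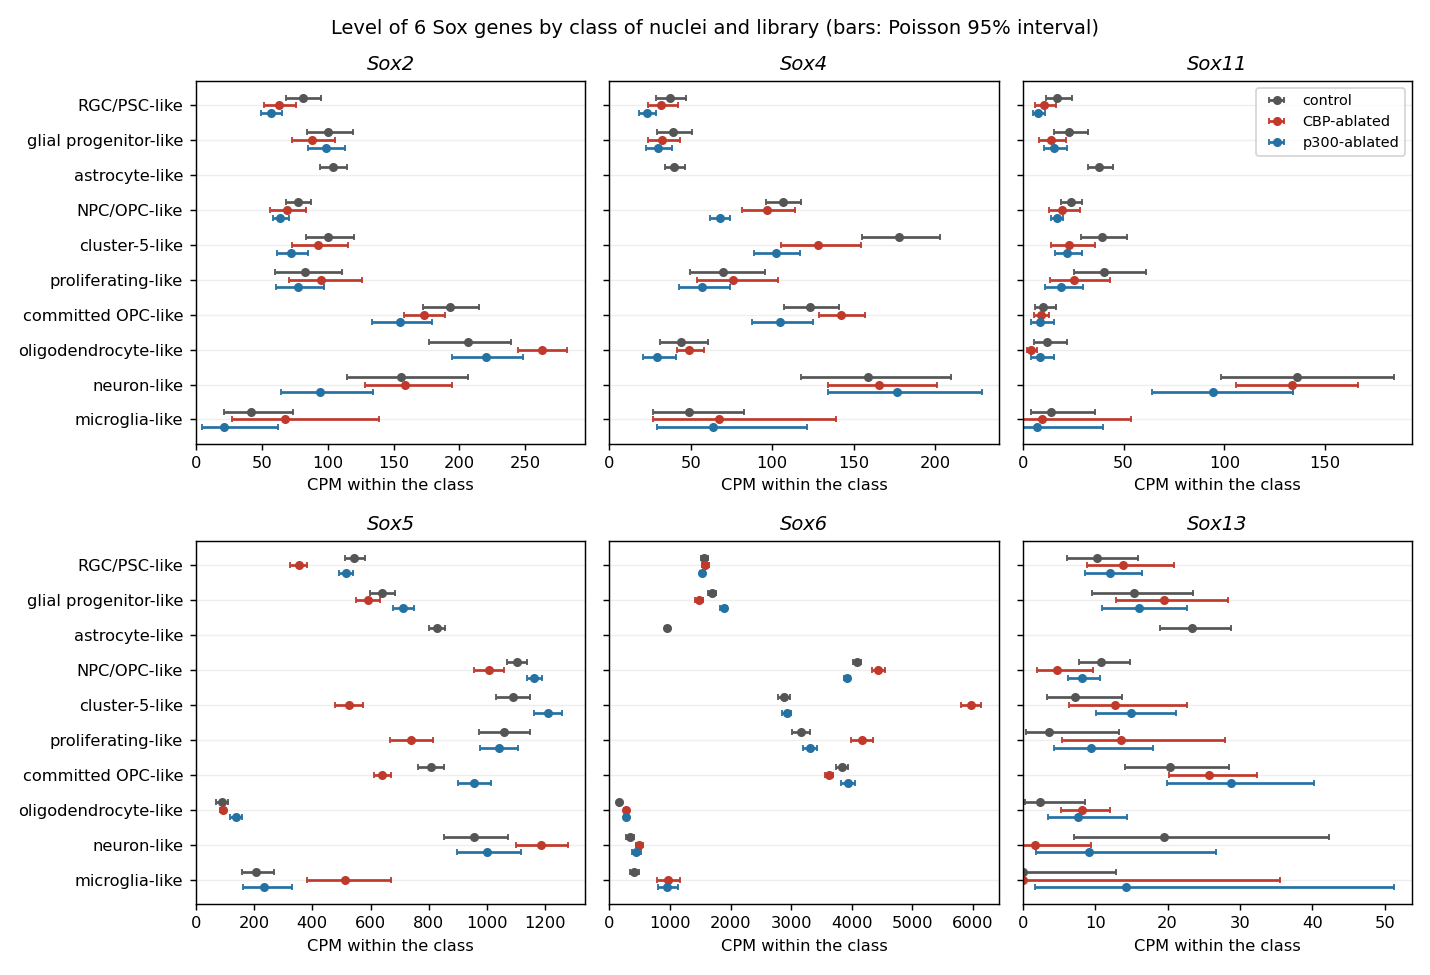
Level of 6 Sox genes within each named class of nuclei, in CPM, with 1 point per library (grey control, red CBP-ablated, blue p300-ablated) and Poisson 95% intervals. Sox2 is highest in oligodendrocyte-like, and Sox11 in neuron-like nuclei of every library, and Sox6 stands apart in CBP-ablated cluster-5-like nuclei at 5964 CPM.

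Sox5 (chr6:143828425-144781977, minus strand) and Sox6 (chr7:115470872-116038796, minus strand) are long genes of 954 kb and 568 kb whose proteins pair with each other on DNA. The first of 6 RefSeq windows of Sox6 (chr7:116038745-116038994, minus strand) held 1 half-site of the cAMP response element, 139 bases from the start, the only one among the 13 windows. The RefSeq window of Sox5 (chr6:143947107-143947356, minus strand) lies inside the annotated gene, at the start of a shorter transcript, and held neither motif.
Sox5: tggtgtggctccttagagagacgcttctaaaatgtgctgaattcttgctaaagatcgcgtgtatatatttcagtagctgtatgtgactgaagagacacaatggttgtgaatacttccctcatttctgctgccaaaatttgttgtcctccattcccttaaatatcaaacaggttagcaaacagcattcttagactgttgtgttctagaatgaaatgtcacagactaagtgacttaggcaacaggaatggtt
Sox6: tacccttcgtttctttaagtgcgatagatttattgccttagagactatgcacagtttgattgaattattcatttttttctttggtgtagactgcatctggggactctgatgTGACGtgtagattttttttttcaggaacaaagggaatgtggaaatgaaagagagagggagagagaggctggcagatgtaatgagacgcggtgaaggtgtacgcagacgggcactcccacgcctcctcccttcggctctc

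Sox5 measured 818 in control, 534 after CBP ablation and 894 after p300 ablation (CPM), from 13336, 6812 and 16884 UMIs. The CBP-ablated library stood apart, with a log2 ratio of −0.61 (−0.66 to −0.57) to control and −0.74 (−0.78 to −0.70) to the p300-ablated library, while the p300-ablated library was above control by 0.13 (0.097 to 0.16). A UMI of Sox5 was present in 63.7%, 43.5% and 65.0% of nuclei in control and after CBP and p300 ablation, once each nucleus had been thinned to 1500 UMIs (4636, 2922 and 4513 nuclei were deep enough), and in 78.7%, 62.6% and 83.3% without thinning. Part of the difference moved with the makeup of the CBP-ablated library: oligodendrocyte-like nuclei, where Sox5 stood at 88.9, 92.2 and 137 CPM, made up 16.1% of its nuclei and 3.28% of control nuclei. With the same class weights the ratio was −0.29 (−0.34 to −0.25), still below 0. Pooled over the libraries, Sox5 was highest in NPC/OPC-like nuclei, at 1102, 1006 and 1162 CPM and in neuron-like nuclei at 957, 1186 and 1001 CPM, ranges that overlap. After CBP ablation the interval lay below 0 in 5 of 9 named classes: cluster-5-like at −1.05 (−1.21 to −0.90), RGC/PSC-like at −0.63 (−0.78 to −0.48), proliferating-like at −0.52 (−0.71 to −0.33), committed oligodendrocyte precursor-like at −0.33 (−0.43 to −0.23) and NPC/OPC-like at −0.13 (−0.22 to −0.045). It lay above 0 in neuron-like nuclei at 0.31 (0.11 to 0.51) and in microglia-like nuclei at 1.30 (0.74 to 1.86), the latter from levels of 207, 511 and 234 CPM in 183, 75 and 53 nuclei. Sox6 in the same microglia-like nuclei measured 411, 965 and 958 CPM, a ratio of 1.23 (0.83 to 1.63) after CBP ablation, and microglia should lack both genes. The CBP-ablated level of microglia-like nuclei was above that of RGC/PSC-like nuclei (353 CPM) and close to that of cluster-5-like nuclei (525 CPM) in the same library. After p300 ablation the interval lay above 0 in 5 classes and below 0 in none. The largest of these, oligodendrocyte-like nuclei at 0.63 (0.23 to 1.04), rests on shares of nuclei with a UMI of 10.7%, 9.26% and 10.9%, below the 21.9%, 27.3% and 20% of microglia-like nuclei at 1500 UMIs. Without thinning the order was the opposite, with 23.8%, 26.3% and 32.1% of oligodendrocyte-like and 19.7%, 21.3% and 26.4% of microglia-like nuclei, and no difference is read from this ratio.

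Sox6, which keeps oligodendrocyte precursors from maturing, measured 2293 in control, 2436 after CBP ablation and 2769.8 after p300 ablation (CPM). Its log2 ratios to control were 0.087 (0.065 to 0.11) and 0.27 (0.25 to 0.29), and both depended on the weights of the classes. Sox6 was low in astrocyte-like nuclei, at 955 CPM, and without that cluster the ratio for CBP ablation was −0.16, on the other side of 0, and that for p300 ablation 0.028. With the same class weights they were 0.20 (0.17 to 0.22) and 0.00033 (−0.020 to 0.020). In control the 4 highest classes were NPC/OPC-like at 4092, committed oligodendrocyte precursor-like at 3841, proliferating-like at 3157 and cluster-5-like nuclei at 2884 CPM, and oligodendrocyte-like nuclei were the lowest at 168 CPM. The step from committed precursor-like to oligodendrocyte-like nuclei was large in every library, from 3841, 3628 and 3943 CPM to 168, 269 and 272 CPM. Microglia-like nuclei held 411, 965 and 958 CPM, and 37.5%, 59.1% and 50% of them had a UMI at 1500 UMIs, from 64, 22 and 30 nuclei, more than the 15.1%, 23.5% and 25% of oligodendrocyte-like and the 25.3%, 31.1% and 42.2% of neuron-like nuclei. Without thinning the shares were 33.9%, 57.3% and 69.8% in microglia-like, 38.8%, 60.5% and 56.0% in oligodendrocyte-like and 43.6%, 55.0% and 54.0% in neuron-like nuclei. The microglia-like nuclei had fewer UMIs, with a median of 1151 over the libraries against 5811 for oligodendrocyte-like nuclei. At equal depth the shares of oligodendrocyte-like and neuron-like nuclei were thus below those of microglia-like nuclei, while without thinning the order was mixed, and no difference between libraries is read from the Sox6 ratios of these 3 classes. The part of free RNA in their levels was not measured, since the 10% subtracted as an alternative is an assumed part.

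Among the other classes, Sox6 after CBP ablation was higher in cluster-5-like nuclei at 1.05 (0.99 to 1.11), in proliferating-like nuclei at 0.40 (0.31 to 0.49) and, by less, in NPC/OPC-like nuclei at 0.12 (0.076 to 0.16). It was lower in glial progenitor-like nuclei at −0.20 (−0.29 to −0.11) and committed oligodendrocyte precursor-like nuclei at −0.082 (−0.13 to −0.037). After p300 ablation Sox6 was higher in glial progenitor-like nuclei at 0.16 (0.085 to 0.24) and lower in NPC/OPC-like nuclei at −0.060 (−0.089 to −0.030), and cluster-5-like and proliferating-like nuclei gave 0.022 (−0.038 to 0.082) and 0.067 (−0.018 to 0.15). The other 3 intervals above 0 were those of microglia-like, oligodendrocyte-like and neuron-like nuclei.

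**Figure D3:**
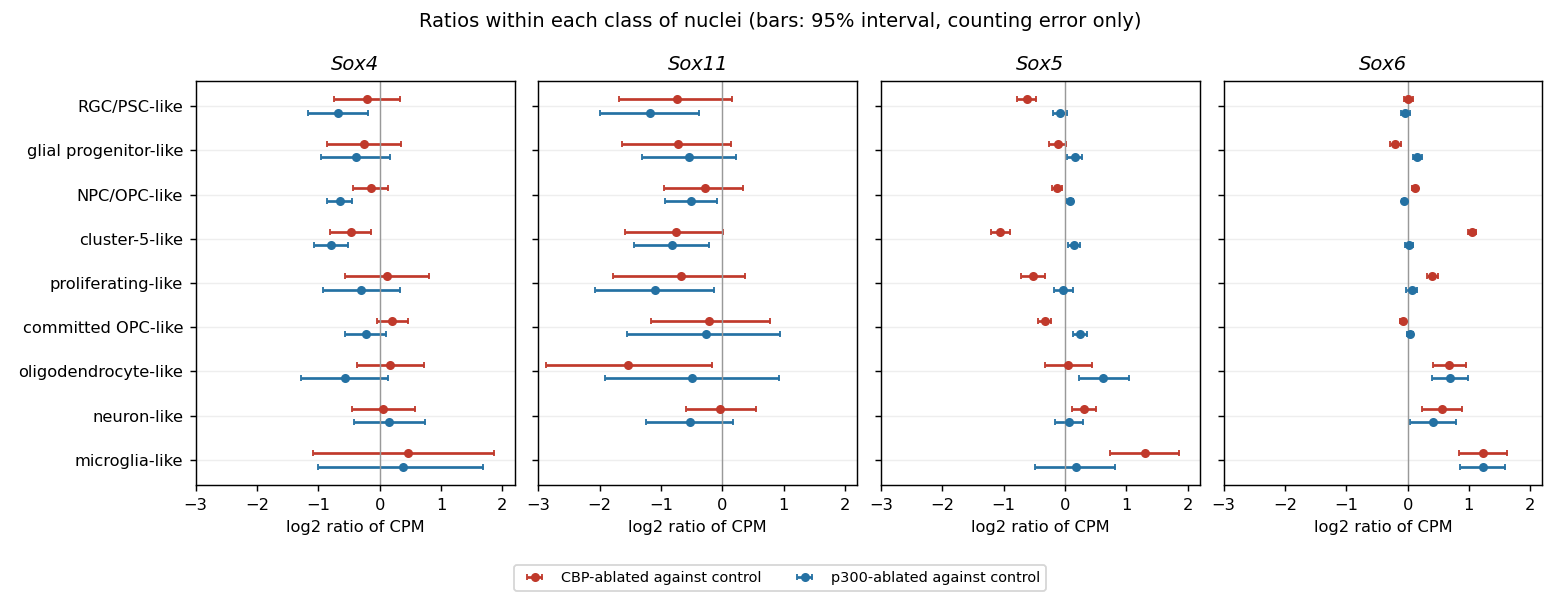
Log2 ratio of CPM to control within each named class for Sox4, Sox11, Sox5 and Sox6 (red CBP-ablated, blue p300-ablated). Classes with at least 20 UMIs in the 2 libraries are shown. Bars are 95% intervals for counting error. Sox11 lies at or left of 0 in every class shown, and in cluster-5-like nuclei the red points of Sox5 and Sox6 lie on opposite sides of 0.

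The cluster-5-like nuclei showed the widest split between the 2 SoxD partners. Sox5 measured 1089 in control, 525 after CBP ablation and 1208 after p300 ablation (CPM) and Sox6 2884 in control, 5964 after CBP ablation and 2928 after p300 ablation. Both values of the CBP-ablated library lay 2-fold from control, in opposite directions, in a class where 3.4% of 3526 genes were at least 2-fold higher and 5.59% at least 2-fold lower. The class was not of one kind in the 3 libraries, since at a resolution of 1.2 it separated mainly into a cluster led by Kcnj6 and Disp3 and a cluster led by Gpr149. By the same naming rule the first was cluster-5-like. The second, of 1595 nuclei in all, was NPC/OPC-like, with 7 of 8 NPC/OPC and 3 of 5 cluster-5 markers met over the whole cluster. Its markers were not scored in the cluster-5-like nuclei alone. Of the cluster-5-like nuclei, 237 of 362 in control, 21 of 260 in the CBP-ablated and 468 of 511 in the p300-ablated library fell in the first, and 123, 233 and 34 in the second. In the Kcnj6 group Sox5 measured 1133, 1426 and 1206 CPM and Sox6 2489, 2731 and 2833 CPM, with log2 ratios for CBP ablation of 0.33 (0.043 to 0.61) and 0.13 (−0.071 to 0.33). In the Gpr149 group Sox5 measured 985, 434 and 1231 CPM and Sox6 3832, 6292 and 4642 CPM, with log2 ratios of −1.18 (−1.403 to −0.96) and 0.72 (0.63 to 0.80). Sox5 and Sox6 thus lay on opposite sides of control in the Gpr149 group, which holds most of the CBP-ablated nuclei of the class, and not in the Kcnj6 group. With 2000 variable genes chosen by another method (vst) the cluster-5-like ratios were 0.17 for Sox5, on the other side of 0, and 0.14 for Sox6. In that clustering the cluster led by Gpr149 (422 nuclei) received no name and is not part of these ratios. Marker levels were also summed over the whole class in control and after CBP and p300 ablation, with no marker at 0. The 6 markers of committed oligodendrocyte precursors gave 819, 1926 and 882 CPM and the 8 NPC/OPC markers 18522, 21808 and 18447 CPM. The 7 neuron markers gave 1299, 665 and 1112 CPM and the 6 astrocyte markers 3926, 672 and 4169.7 CPM. The 5 class markers gave 4082, 2483 and 3888 CPM. The part of these markers in the Sox5 and Sox6 values was not tested.

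Sox13 (chr1:133382303-133424377, minus strand), the third SoxD gene, measured 14.5 in control, 13.9 after CBP ablation and 12.2 after p300 ablation (CPM), from 237, 177 and 231 UMIs. The log2 ratios to control were −0.065 (−0.35 to 0.22) and −0.25 (−0.52 to 0.020), and their intervals span 0, a difference not detectable at this depth. Pooled over the libraries, committed oligodendrocyte precursor-like nuclei were the highest at 20.4, 25.7 and 28.8 CPM, next to the astrocyte-like nuclei of control at 23.4 CPM, and their ranges overlap. NPC/OPC-like nuclei, in which the pooled levels of Sox5 and Sox6 were highest, held 10.9, 4.73 and 8.24 CPM. Of the classes with at least 20 UMIs, 1 had an interval off 0, NPC/OPC-like after CBP ablation at −1.20 (−2.60 to −0.021).

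Over all nuclei, 4 of the 7 counted genes kept the side of 0 of both ratios when each library had the same class weights: Sox21, Sox11, Sox5 and Sox6. Sox2 and Sox4 for CBP ablation and Sox13 for both ablations lay on the other side of 0, each with an interval that spans 0 after weighting. Of the ratios with an interval off 0, those of Sox2 and Sox21 for CBP ablation and of Sox6 for p300 ablation had an interval that spans 0 with the same class weights. For p300 ablation the ratios of Sox2, Sox21, Sox4 and Sox11 stayed below 0.

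**Figure D4:**
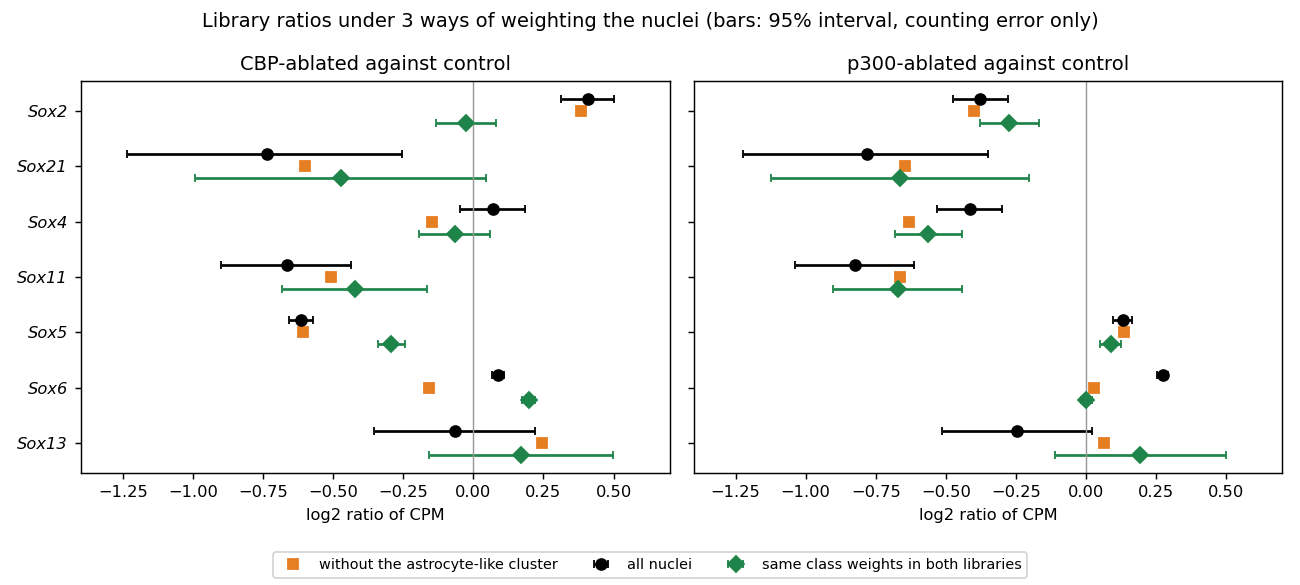
Log2 ratio of CPM to control for the 7 counted genes over all nuclei (black circles), without the astrocyte-like cluster (orange squares, no interval drawn) and with the same class weights in both libraries (green diamonds). Bars are 95% intervals for counting error. The Sox2 diamond for CBP ablation lies at 0, whereas Sox11 stays left of 0 in both panels.

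The p300-ablated library also differed from control by gene length. Taken over all genes, the median log2 ratio was higher for longer genes, from −0.23 under 10 kb to 0.17 over 300 kb, whereas for the CBP-ablated library it was 0.028 and 0.0056. Of the 9 genes, 6 span under 10 kb, and Sox5 and Sox6 span over 300 kb. Relative to genes of their own range of span, the p300 ratios were −0.15 for Sox2, −0.18 for Sox4, −0.55 for Sox21, −0.59 for Sox11, 0.100 for Sox6 and −0.043 for Sox5, the last on the other side of 0. This comparison was chosen after the data were seen, and the part of gene length in the values was not tested. Within classes, the p300-ablated median for genes under 10 kb was −0.15 in NPC/OPC-like, −0.14 in RGC/PSC-like and −0.16 in cluster-5-like nuclei. It was −0.10 in committed oligodendrocyte precursor-like, −0.22 in oligodendrocyte-like, −0.11 in proliferating-like and −0.027 in glial progenitor-like nuclei. The class ratios of Sox2, Sox4 and Sox11 given above are not centred on these medians. For CBP ablation the Sox5 ratio over all nuclei relative to long genes was −0.62. The CBP-ablated median over 300 kb is given for the classes with a Sox5 interval below 0. It was −0.12 in cluster-5-like (quartiles −0.80 and 0.32), −0.10 in proliferating-like and −0.071 in committed oligodendrocyte precursor-like nuclei. It was −0.044 in NPC/OPC-like and 0.019 in RGC/PSC-like nuclei. For genes of 30 to 100 kb these classes gave 0.24, 0.19, 0.15, 0.10 and 0.033 in the same order. The Sox5 class ratios above are not centred on these medians.

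**Figure D5:**
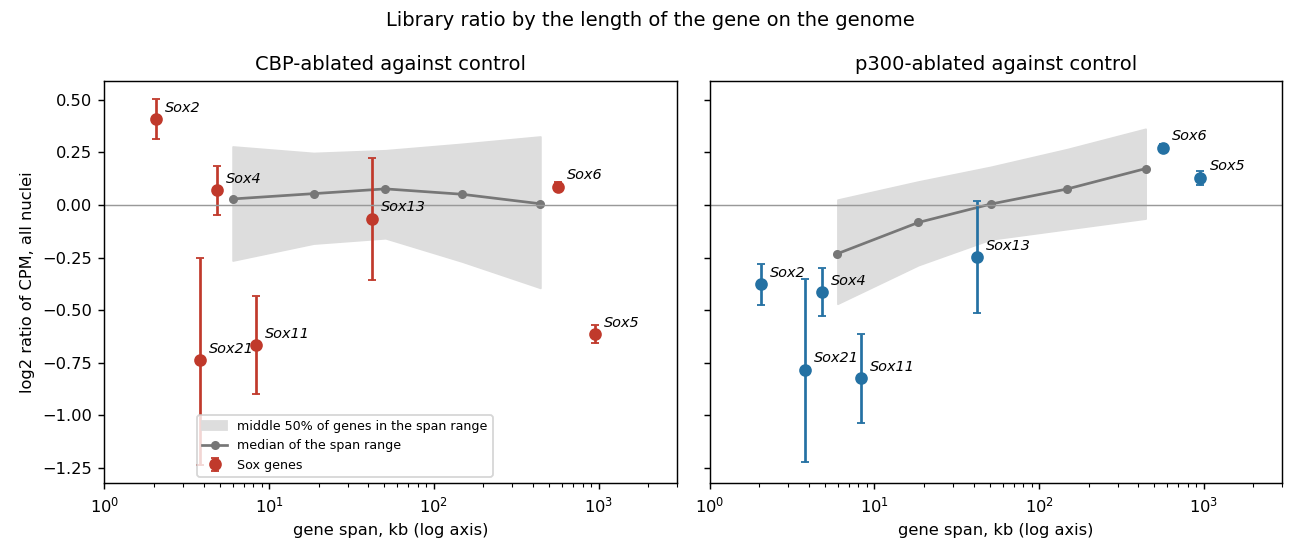
Log2 ratio of CPM to control over all nuclei against gene span in kb on a log axis. The grey line and band are the median and the middle 50% of all counted genes in 5 ranges of span, and coloured points are the 7 counted Sox genes with 95% intervals. In the p300-ablated panel the grey line climbs from left to right, and Sox11 and Sox21 lie lower than the band at any span.

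Members of a group were also read together in single nuclei thinned to 1500 UMIs. Both Sox5 and Sox6 had a UMI in 75.2% of control NPC/OPC-like nuclei, beside 75.3% if the 2 genes were independent within the class, and in 45.3% of CBP-ablated cluster-5-like nuclei, beside 45.4%. Sox4 and Sox11 both had a UMI in 6.59% of control neuron-like nuclei, beside 4.11%, from 6 nuclei. In CBP-ablated neuron-like nuclei the share was 2.40%, beside 3.45%, from 4 nuclei. In the classes given here the joint detection of Sox5 and Sox6 was thus near the product of the single shares. That of Sox4 and Sox11 lay above the product in control and below it after CBP ablation, with few nuclei behind these values. Other classes are not covered by these values. A Sox4 UMI was present in 21.98%, 22.2% and 21.7% of neuron-like nuclei in control and after CBP and p300 ablation, against 7.81%, 13.6% and 6.67% of microglia-like nuclei, and a Sox11 UMI in 18.7%, 15.6% and 10.8% against 1.56%, 0% and 0%. A Sox2 UMI was present in 23.3%, 31.1% and 31.2% of oligodendrocyte-like nuclei, against 4.69%, 4.55% and 0% of microglia-like nuclei. Without thinning the shares were 28.7%, 36.7% and 46.0% for Sox4 and 27.7%, 33.1% and 24.1% for Sox11 in neuron-like nuclei and 53.1%, 73.7% and 69.4% for Sox2 in oligodendrocyte-like nuclei.

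Other transcripts of the same loci were read for comparison. The antisense transcript Sox5os4, within Sox5, measured 28.4, 14.4 and 24.1 CPM in the order control, CBP and p300 ablation, with log2 ratios of −0.98 (−1.24 to −0.73) and −0.24 (−0.43 to −0.046), and Sox5os2 gave −1.05 (−1.72 to −0.42) and 0.092 (−0.36 to 0.55). Both thus lay on the same side of control as Sox5 in the CBP-ablated library. The strand setting of the counting is not given in the sources used here, so reads of Sox5 and of its antisense transcripts may not be fully separated. Of 9 other Sox genes, 3 reached 100 UMIs, all of group SoxE, which drives glial fates, and 0 differed 2-fold. Sox10, a driver of myelination, gave 0.73 (0.66 to 0.80) and 0.42 (0.36 to 0.49), Sox8 gave 0.072 (−0.014 to 0.16) and −0.31 (−0.39 to −0.22), and Sox9, a glial factor, gave −0.34 (−0.53 to −0.15) and −0.49 (−0.66 to −0.31). Under the same class weights these ratios were 0.12 and 0.13 for Sox10, −0.13 and −0.48 for Sox8, and 0.20 and −0.11 for Sox9, so that Sox8 and Sox9 after CBP ablation lay on the other side of 0.

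Genes of the programmes these factors act in were counted by list. Of all genes counted, 2.89% were at least 2-fold higher and 3.99% at least 2-fold lower after CBP ablation, and 0.694% and 2.12% after p300 ablation. The medians of all genes counted were 0.058 and −0.035. Of 14 progenitor genes, 13 were counted, and after CBP ablation 1 was at least 2-fold higher (Prom1, 1.63) and 3 at least 2-fold lower (among them Egfr, −2.03, and Fabp7, −1.22), with a median of −0.18. After p300 ablation 1 was 2-fold lower (Egfr, −1.73), and the highest was Nes at 0.74, with a median of −0.015. Of 12 neuronal genes linked to SoxC factors, 10 were counted. After CBP ablation 1 was at least 2-fold lower (Gap43, −1.06) and the highest was Stmn2 at 0.47. After p300 ablation none was, with values from −0.68 for Tead2 to 0.48 for Elavl4. The median of this list was −0.033 and −0.11. Of 14 oligodendrocyte lineage genes, all were counted, and 8 were at least 2-fold higher after CBP ablation, led by Mobp at 2.79 and Mag at 2.14, while Cspg4 at −0.86 and Olig1 at −0.35 were the lowest. The median of 1.16 came to 0.24 with the same class weights. After p300 ablation 0 of 14 passed 2-fold, with a median of 0.035.

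The profiles of the 6 most abundant members, each past 100 UMIs in every library, were compared with those of 9289 genes, as Pearson's r of log2(CPM + 1) across genes' levels in 32 sums of 1 class and 1 library. These points share libraries and the same clustering, and the values are a description. The closest genes were Zfp536 at 0.845, Ppp2r3a at 0.838 and Arid4b at 0.812 for Sox2, Slc4a7 at 0.857, Kdm1a at 0.857 and Camsap1 at 0.836 for Sox4 and Hs3st4 at 0.844, Nyap2 at 0.831 and Gpr158 at 0.819 for Sox11. For the SoxD genes, those among the 3 closest were Dlgap1 at 0.893 and Adgrb3 at 0.887 for Sox5, Chst11 at 0.924, Snx25 at 0.910 and Ppp2r2b at 0.899 for Sox6 and Ttll11 at 0.744, Lpin1 at 0.737 and Dtx1 at 0.725 for Sox13. Between members of the same group, r was 0.650 for Sox5 and Sox6, 0.527 for Sox4 and Sox11, 0.402 for Sox6 and Sox13 and 0.268 for Sox5 and Sox13. Pairs from different groups overlapped with these, from 0.556 for Sox5 and Sox11 and 0.397 for Sox2 and Sox4 to −0.250 for Sox2 and Sox6.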

How the data were processed

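Single-nucleus 3′ libraries (Chromium v3) of 3 pools of cultures were analysed. Per the labels and methods, the authors checked reads with FastQC 0.11.9, aligned them to GRCm38 (mm10) with Cell Ranger 3.1 and deposited UMI counts of 30559 genes over exons and introns, not normalized; the submitters' notes also name Seurat 2.3.4. All nuclei (at least 500 UMIs each) were kept. Groups were taken from the genotype labels.

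Clustering used R 4.3.3 and Seurat 5.3.0 (1000 dispersed genes per library, 20 components, 30 neighbours, resolution 0.6, seed 1). A cluster was named when at least 60% and at least 3 markers of 1 list met 2 limits. These were a UMI in 10% of its nuclei and 2 times the level of other nuclei after adding 1 CPM. Where more than 1 list passed, the list with the largest share of markers met gave the name. Doublets were scored with Scrublet in scanpy 1.11.5, called at 0.8% per 1000 nuclei (191, 73 and 173 nuclei) and kept in the main values. Cluster 10, without a name, was 75.8% called doublets.

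UMIs were summed per library and class in Python 3.11.15 (pandas 2.3.3, scipy 1.17.1, numpy 2.4.6), with figures by matplotlib 3.10.9. Class ratios needed 20 UMIs in the 2 libraries together and 20 nuclei in each. Class weights were the mean share of UMIs of 11 clusters in the 2 libraries, with an interval from Poisson variances. The calculation of ratios and intervals was checked on simulated counts with known folds. No test between conditions was made. The floor of 3 UMIs, used where a gene had 0, was 0.184, 0.235 and 0.159 CPM in control and after CBP and p300 ablation. Genes were named as the 9 members, genes on 3 lists, other Sox genes, genes of the same loci and the 3 genes of closest profile; the leading genes of clusters were named after their values were seen. A few genes that these rules name are not reported here. Members and lists were chosen with earlier results of these data known. Of the genes, 30410 matched GENCODE M21, whose coordinates are given. Alternatives were other minimum counts, a 1.5-fold limit, centring, doublet removal, nuclei with at least 1500 UMIs, thinning, the astrocyte-like cluster left out, class weights, other clusterings and 10% free RNA subtracted.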

Additional observations from a re-analysis of the deposited data

Results flagged for a closer look

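The log2 ratio of Sox5 after CBP ablation pointed in opposite directions in different classes of nuclei. It was 1.30 in microglia-like nuclei, −1.05 in cluster-5-like and −0.63 in RGC/PSC-like nuclei. The microglia-like value rests on 183 control and 75 CBP-ablated nuclei, in which Sox6 gave 1.23 (0.83 to 1.63), and the CBP-ablated Sox5 levels were 511, 525 and 353 CPM in the 3 classes, and the difference between classes was not tested, since each class has 1 library per condition.

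Sox2 over all nuclei lay on opposite sides of control in the 2 ablated libraries, at 0.41 after CBP ablation and −0.38 after p300 ablation. The difference was not tested. With the same class weights the first value was −0.025 (−0.13 to 0.083) and the second −0.27 (−0.38 to −0.17).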

How the results depend on the processing

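With a minimum of 20 UMIs, or of 1 UMI in each library, Sox1 alone was past 2-fold, lower in each ablated library. The count was then 1 instead of 0. The shares of all genes past 2-fold given above hold for the main minimum. Shares at the lower minimums are not given, so whether this count is unusual cannot be told. At 1.5-fold there were 3 genes for CBP and 2 for p300 ablation. The count stayed at 0 under the other planned settings. With common class weights the medians of the members were −0.067 for CBP and −0.27 for p300 ablation, beside −0.065 and −0.38. Of the library ratios of single genes under alternatives, 113 stayed within the interval of the value given, 28 left it on the same side or from an interval that spans 0, and 3 changed side: Sox2 after CBP ablation with common class weights (−0.025), Sox6 after CBP ablation outside the astrocyte-like cluster (−0.16) and Sox5 after p300 ablation relative to genes of like span (−0.043). The last setting, the clusters without a name left out, and class ratios from nuclei with at least 1500 UMIs were chosen after seeing the data. Of the class ratios, 141 stayed within the interval, 12 moved beyond it and 3 changed side. Of the class levels, 60 stayed and 11 moved. With 10% free RNA subtracted, 18 results stayed and 6 moved. In cluster-5-like nuclei after CBP ablation, Sox5 gave 0.33 at resolution 1.2 and 0.17 with 2000 variable genes by vst, while Sox6 gave 0.15 and 0.14. Other nuclei bear the name there, since 21 of the 260 CBP-ablated nuclei fall in that class at resolution 1.2. With vst the cluster led by Gpr149 (422 nuclei) received no name and is not part of the values. Without Sox genes among the variable genes the values were −0.81 and 0.85. There a cluster led by Kcnj6 (744 nuclei) and another led by Gpr149 (616 nuclei) both bore the name and were pooled. Resolution 0.3 gave no cluster-5-like class. In oligodendrocyte-like nuclei Sox5 after p300 ablation gave −0.081 with classes by marker score, and the cause was not tested. No paired analysis was possible because each condition has 1 library. Depth limits Sox1, Sox3, Sox21 and Sox13, whose class values rest on few UMIs, and Sox11 in microglia-like nuclei.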

Other observations

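The 2 clusters without a name are part of the whole-library and class-weighted ratios above, and their own levels were as follows. Cluster 11, of 218 nuclei with a median of 1402 UMIs and led by Gm8251, Cenpf and the stress genes Cdkn1a, Btg2 and Gadd45g, had the highest pooled levels of Sox2, Sox4 and Sox21 among the 12 clusters, at 265, 276 and 19.9 CPM, the last from 7 UMIs in all. Sox4 there measured 423 in control, 169 after CBP ablation and 198 after p300 ablation (CPM), and the long gene Sox5 626 in control, 389 after CBP ablation and 261 after p300 ablation. Sox11 measured 121 in control, 143 after CBP ablation and 7.06 after p300 ablation (CPM), from 28 UMIs in all. Cluster 10, led by Wnt5b, had 2711 CPM of Sox6 and 828 CPM of Sox5.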
